A study of Mus musculus with 6 samples.

Results

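Oxidative phosphorylation subunits are the proteins that build complexes I to V of the mitochondrial inner membrane. Their genes were taken from the bulk RNA-seq count table by symbol. The symbols were Ndufa, Ndufb, Ndufc, Ndufs or Ndufv followed by a number and nothing else, and Sdha to Sdhd. All symbols that begin with Uqcr, with Cox4 to Cox8 and a letter, or with Atp5 were also taken. This gave 87 of 44788 symbols. Of these, 35 belong to complex I, 4 to complex II, 8 to complex III, 18 to complex IV and 15 to complex V, while 3 are not subunits (Cox7a2l, Atp5s and Atp5sl) and 4 are pseudogenes. Ndufa4, first assigned to complex I, was placed in complex IV.

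The samples were tail tendons of 3-week-old C57BL/6 mice, 3 from wild-type (WT) mice and 3 from Mkx-/- mice, which carry a constitutive knock-out of the tendon transcription factor Mohawk (Mkx) that is not limited to a cell type. The age is that of the sample labels, and the study's text gives a different one. No treatment is listed for either group. The labels number the samples without saying whether each came from a separate mouse, so that p-values measure the spread between these samples, which may in part be technical. In bulk tissue, fewer cells of a type and less RNA per cell cannot be told apart.

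Complexes I to IV pass electrons from NADH or succinate to oxygen and, apart from complex II, pump protons across the inner membrane, and complex V, the ATP synthase, uses the proton gradient to make ATP. Most subunits are encoded in the nucleus and a small set of membrane subunits in mitochondrial DNA. Several nuclear subunits of complex IV, cytochrome c oxidase, exist as pairs of genes, with an ubiquitous isoform and another that is restricted to a tissue. Cox6a2, Cox7a1 and Cox8b are the isoforms of heart and skeletal muscle, Cox4i2 is best known from lung, and Cox6b2, Cox7b2 and Cox8c from testis. Tendon is a tissue of sparse fibroblasts in a collagen matrix, attached to muscle.

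Libraries held 10835070 to 14160301 counts assigned to genes. Counts of Col1a1, Col1a2 and Sparc made up 42.0 to 48.5% of the WT and 28.3 to 34.8% of the Mkx-/- libraries, and the 87 members 0.245 to 0.259% and 0.283 to 0.335%, before scaling for composition. Levels are given as counts scaled to library size by TMM, which corrects for that difference in composition (normalized CPM). Mkx itself had 144, 136 and 135 CPM in WT and 56.8, 41.4 and 38.9 CPM in Mkx-/- libraries, and it fell by 1.60 on the log2 scale (adjusted p = 0.00183, edgeR), and by 1.63 without WT replicate 3 (adjusted p = 0.0130). The tendon markers Tnmd (886 to 1292 CPM) and Scx (13.3 to 53.4 CPM) were present in all 6 libraries. WT replicate 3 was the only library with counts of the Y-linked gene Ddx3y (301), and it had 1 count of Xist, where the other 5 libraries had 1289 to 1866. The edgeR calls of members and the count of members higher in Mkx-/- are also given without it. Other counts of members come from all 6 libraries and may change without it.

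Many subunit genes are known to share activators. RefSeq promoter sequences (GRCm38.p6, 250 bases before to 50 after the start) were matched for 69 of the 87 members, 66 of them subunits. The binding motif of NRF1, a general activator of nuclear mitochondrial genes, was searched on both strands as the palindrome in capitals in the windows that follow, and it was present in 5 of 66 subunit promoters (7.58%), beside 1.07% of all 27025 promoters. The ETS motif CCGGAAG, bound by GABP among others, was in 16 of 66 (24.2%), beside 9.93% of all promoters. The shares were closer for the GC box GGGCGG (39.4% and 38.2%) and for the CCAAT box CCAAT (43.9% and 41.1%), while CAGCTG, an E-box form bound by muscle regulators (9.09% and 18.3%), and TATAAA (10.6% and 15.7%) were in a smaller share of subunit promoters than of all promoters. The 30 bases around the NRF1 motif, in capitals, are shown for the 5 subunits that hold it, on the gene's own strand, because this motif had the highest ratio to the share in all promoters. They lie at chr17:56717692-56717721 (+), chr9:108936668-108936697 (+), chr5:115349101-115349130 (-), chr15:102671070-102671099 (-) and chr5:108434430-108434459 (-).
Ndufa11: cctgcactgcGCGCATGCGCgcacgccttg
Uqcrc1: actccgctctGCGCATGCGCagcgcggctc
Cox6a1: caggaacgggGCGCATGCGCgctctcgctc
Atp5g2: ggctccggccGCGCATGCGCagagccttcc
Atp5k: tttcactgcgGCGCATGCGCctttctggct

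Across all members, the subunit genes of tail tendon differed little between Mkx-/- and WT. Of the 87 members, 81 had enough counts to be tested. Cox6a2 and Cox6b2 rose, that is 2 members at an adjusted p under 0.05 (edgeR's quasi-likelihood test with Benjamini-Hochberg adjustment over all 14550 genes tested), beside 3.18% of all genes tested. Both were also upregulated, with a log2 fold change over 1, beside 1.89% of all genes. None fell, beside 2.26% of all genes, and none was downregulated, beside 1.33%. At an unadjusted p under 0.05, 4 members were higher in Mkx-/- and 0 lower, beside 12.5% and 10.1% of all genes tested, so that fewer members than genes at large were at that p in either direction. Cox6a2 and Cox6b2 had enough counts to be tested only through the Mkx-/- libraries. DESeq2, run on the same counts, called the same 2 members. Both calls of edgeR were lost without WT replicate 2, and also without WT replicate 3. The count of 2 among 81 is near the background and is no result about the members as a group.

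The median log2 fold change was 0.05 over the 81 members and -0.0037 over all genes tested. Of the members, 52 were higher and 29 lower in Mkx-/- (64.2% higher, beside 49.5% of all genes). Without the WT library of lowest subunit levels, replicate 1, 42 of 81 were higher, and without WT replicate 3, 51 of 81, with a median of 0.06. All 3 Mkx-/- libraries were above all 3 WT libraries for 7 of the 81 tested members, beside 14.6% of all genes tested. They were below for 2 (Uqcrh and Atp5a1), beside 13.6%. Over the 73 subunits with no tissue restriction none passed the test, and their log2 fold changes ran from -0.23 (Atp5g3) to 0.46 (Uqcr10).

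The test bounds these differences rather than showing that levels were equal. The 95% confidence interval of the log2 fold change lay within 1 of 0 for 72 of the 73 ubiquitous subunits and within 0.5 for 35, with a median half-width of 0.37. The interval that reached beyond was that of Atp5g1, up to 1.06, and the lowest bound was that of Atp5g2, at -0.99, both with few counts.

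**Figure D1:**
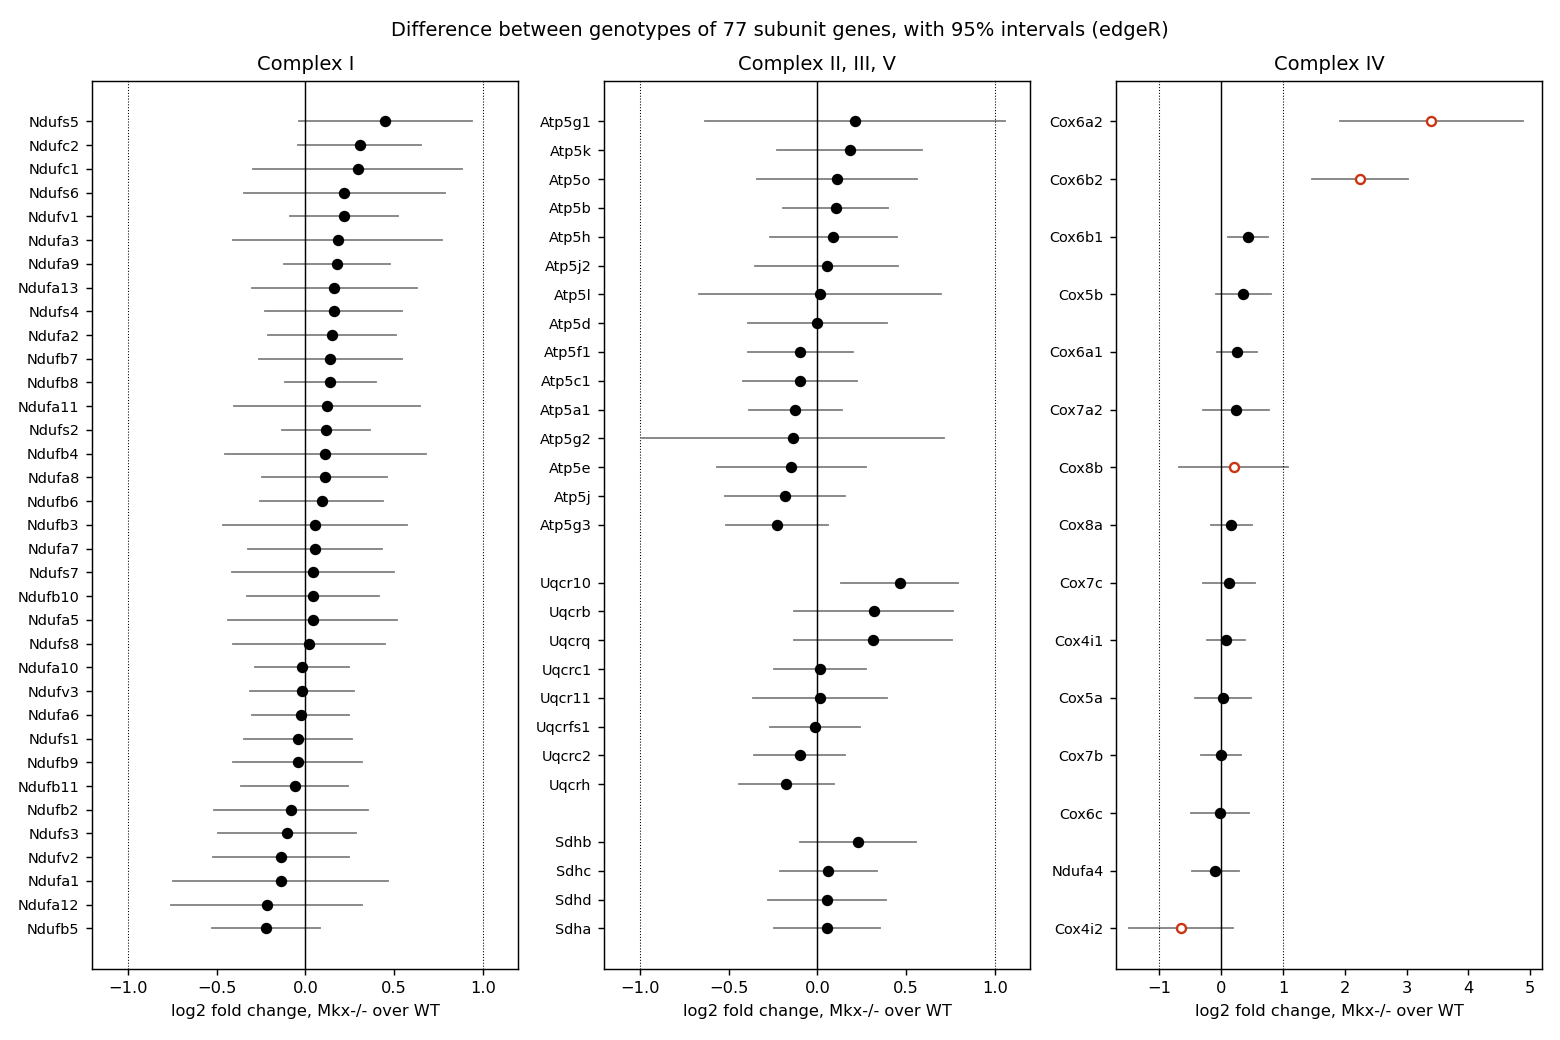
Log2 fold change (Mkx-/- over WT, horizontal axis) of the 77 tested subunit genes with 95% confidence intervals from edgeR (3 libraries per group). Filled points are ubiquitous subunits and open points tissue-restricted isoforms, the right panel has a wider axis, and dotted lines mark a log2 fold change of 1 in either direction. Cox6a2 and Cox6b2 are the 2 genes whose whole interval lies above 1, and both had enough counts to be tested only through the Mkx-/- libraries.

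Levels between genes were compared per kilobase of the median protein-coding transcript (CPM per kb), on the linear scale. In WT libraries the medians of this level over the members of each complex were 21.3 CPM per kb for complex I, 30.9 for complex II, 38.4 for complex III, 13.8 for complex IV and 58.1 for complex V. The 11 ubiquitous subunits of complex IV had a median of 31.6 CPM per kb. This order depended on the length used. By the longest transcript, complex V (33.5 CPM per kb) and the ubiquitous subunits of complex IV (31.6) were close, and by the union of exons complex V was at 19.5, below complex III (22.7). The highest level of any member was that of Cox4i1, at 193 ± 27.6 CPM per kb in WT and 204 ± 12.4 in Mkx-/- (SD, n = 3 each), and the lowest of a ubiquitous subunit that of Ndufb4, at 2.49 ± 0.21 and 2.69 ± 0.41. Subunits of 1 complex are present in nearly fixed numbers in the protein. Their mean transcript levels in WT ran from 2.49 to 79.2 CPM per kb within complex I. Among the 11 ubiquitous subunits of complex IV they ran from 9.84 to 193 CPM per kb. How reads that map to several places were counted is not given, so that low levels are uncertain.

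**Figure D2:**
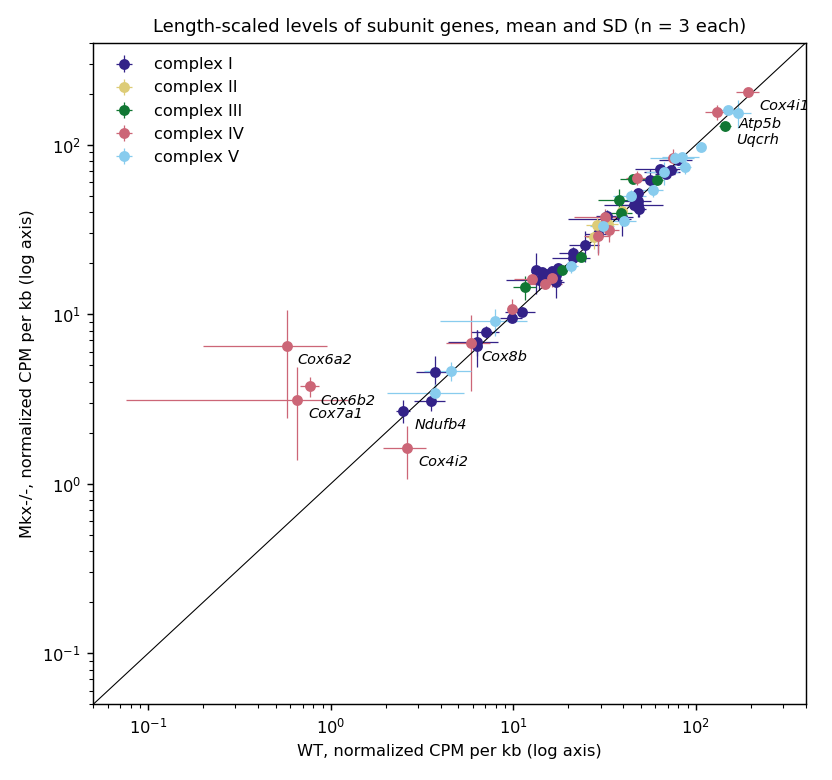
Length-scaled level of each subunit gene that had a length record and any WT count, in WT (horizontal, log axis) and Mkx-/- libraries (vertical, log axis), in normalized CPM per kb, as means with SD (n = 3 each), coloured by complex, with the line of equality. The ubiquitous subunits lie along the line from Ndufb4 to Cox4i1, and Cox6a2, Cox6b2 and Cox7a1 lie above it at the low end.

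Complex I, NADH dehydrogenase, takes electrons from NADH. Its 35 members summed to 743, 945 and 848 CPM in the WT and 882, 854 and 903 CPM in the Mkx-/- libraries. WT replicate 1 was the lowest and WT replicate 2 the highest of the 6, so that the WT libraries enclosed the Mkx-/- libraries. No member passed the test, 23 were higher and 12 lower in Mkx-/-, and the median log2 fold change was 0.05. The 7 core subunits, which hold the flavin and iron-sulfur clusters, had a median of 0.02, and the 28 supernumerary subunits, which surround the core, a median of 0.10.

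By length-scaled level Ndufb10 and Ndufa6, both supernumerary, led complex I, though by the longest transcript or the union of exons Ndufa6 came first and Ndufb10 was not among the first 4. Ndufb10 had 79.2 ± 16.5 CPM per kb in WT and 81.6 ± 5.66 in Mkx-/-, and Ndufa6 had 72.7 ± 6.32 and 71.3 ± 3.39. At the upper end of the differences, Ndufs5 had 7.17, 7.26 and 6.49 CPM in WT and 7.97, 8.08 and 12.5 CPM in Mkx-/- libraries. The groups did not overlap, but Mkx-/- replicate 3 was well above the other two, and the log2 fold change of 0.45 (SE 0.21) had an adjusted p of 0.257 (edgeR). At the lower end, Ndufb5 had 28.4, 33.7 and 29.5 CPM in WT and 24.4, 24.7 and 29.4 CPM in Mkx-/- libraries, a log2 fold change of -0.22 (SE 0.13, adjusted p = 0.373). Its groups overlapped by replicate 3 of Mkx-/-.

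Complex II, succinate dehydrogenase, is also an enzyme of the tricarboxylic acid cycle and is wholly encoded in the nucleus. Its 4 genes summed to 197, 206 and 185 CPM in WT and 196, 208 and 220 CPM in Mkx-/- libraries, and the groups overlapped. All 4 were higher in Mkx-/-, none past the test, with log2 fold changes from 0.05 for Sdha, the flavoprotein, to 0.23 for Sdhb, the iron-sulfur subunit (SE 0.14, adjusted p = 0.395, edgeR). Sdhb had 28.3, 37.4 and 33.1 CPM in WT and 34.4, 39.3 and 41.9 CPM in Mkx-/- libraries. By length-scaled level the membrane anchor Sdhc, with 39.1 ± 2.72 CPM per kb in WT and 40.8 ± 2.55 in Mkx-/-, and Sdha, with 33.0 ± 4.37 and 34.3 ± 0.57, came first. Sdhc was last of the 4 by the longest transcript and by the union of exons.

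Complex III, the cytochrome bc1 complex, passes electrons from ubiquinol to cytochrome c. Its 8 members summed to 250, 258 and 248 CPM in WT and 255, 248 and 267 CPM in Mkx-/- libraries, the smallest spread of the 5 complexes in WT (SD 5.08 CPM). Cyc1, the cytochrome c1 gene of this complex, falls outside the rule for members, as does CYTB in mitochondrial DNA. Cyc1 had 31.4 ± 3.13 CPM in WT and 30.7 ± 2.64 in Mkx-/-. No member passed the test, 5 were higher and 3 lower, and the median log2 fold change was 0.02. Uqcrh, the hinge protein, led by length-scaled level with 145 ± 10.5 CPM per kb in WT and 128 ± 8.37 in Mkx-/-, followed by the core protein Uqcrc1 with 61.1 ± 4.84 and 61.8 ± 2.15.

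The largest difference of a ubiquitous subunit was that of Uqcr10, a small supernumerary subunit. It had 21.5, 21.6 and 16.1 CPM in WT and 27.1, 27.5 and 27.0 CPM in Mkx-/- libraries. All Mkx-/- libraries were above all WT libraries, with a log2 fold change of 0.46 (SE 0.14, adjusted p = 0.1002, edgeR), which did not pass the threshold. Uqcrh was the lowest, with 54.8, 57.0 and 63.0 CPM in WT and 52.3, 48.0 and 54.6 CPM in Mkx-/-, a log2 fold change of -0.17 (SE 0.12, adjusted p = 0.426), and its groups were separated by a narrow gap.

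**Figure D3:**
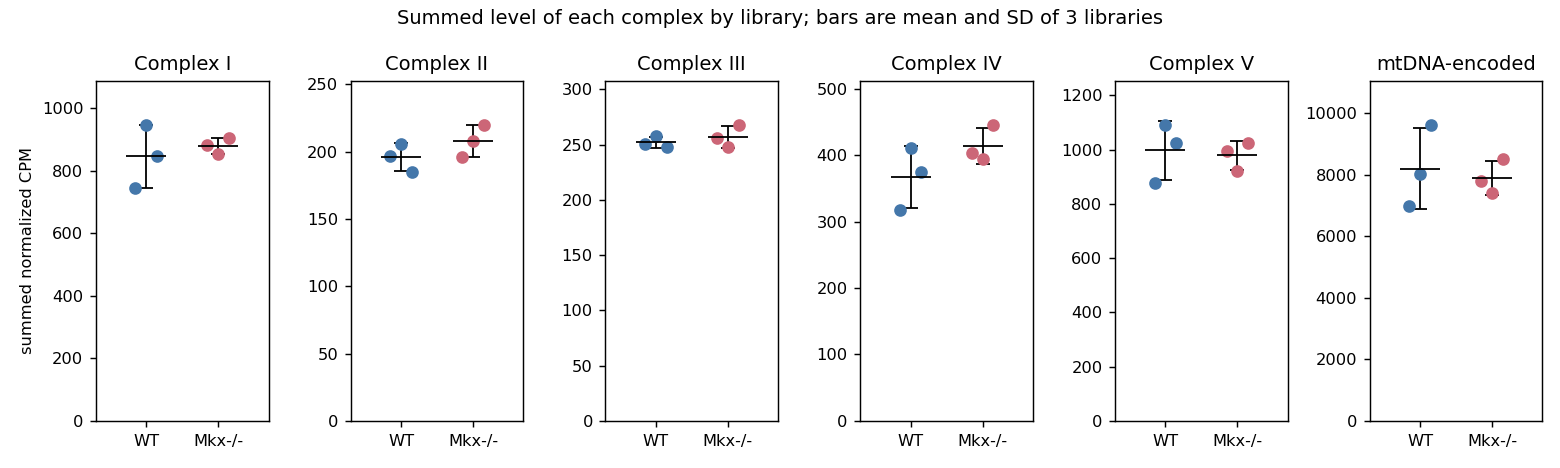
Summed normalized CPM (vertical axes, from 0) of the members of each complex, and of the mitochondrial DNA-encoded subunits, in each WT and Mkx-/- library (points), with mean and SD of 3 libraries. The groups overlap in all 6 panels.

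Complex V, the ATP synthase, had the highest sum over its members, at 876, 1089 and 1026 CPM in WT and 995, 920 and 1024 CPM in Mkx-/- libraries. The members are nuclear genes, and subunits encoded in mitochondrial DNA are not in these sums. COX1 of complex IV alone had 2144, 2365 and 2871 CPM in WT libraries. The Mkx-/- libraries all lay within the range of the WT libraries. No member passed the test, 7 were higher and 8 lower, and the median log2 fold change was -0.00065. The 5 genes of the F1 head, which carries the catalytic sites, had a median of -0.10. Atp5e, the epsilon subunit, had 171 ± 28.8 CPM per kb in WT and 154 ± 28.7 in Mkx-/-, and Atp5b, the catalytic beta subunit, 149 ± 15.5 and 161 ± 5.76.

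Atp5g1, Atp5g2 and Atp5g3 encode the same mature c subunit of the membrane ring from 3 genes, and reads of near-identical copies and pseudogenes may have been split between them, so that the level of each is uncertain. Atp5g3 carried most of these counts, with 56.6, 61.6 and 67.2 CPM in WT and 52.0, 48.4 and 57.9 CPM in Mkx-/- libraries. Its log2 fold change was the lowest in the complex at -0.23 (SE 0.12, adjusted p = 0.326, edgeR), with overlapping groups. Atp5g1 was the highest at 0.21 (SE 0.37, adjusted p = 0.783), with 2.52, 7.95 and 5.93 CPM in WT and 5.77, 5.48 and 7.61 CPM in Mkx-/- libraries, a spread within WT that exceeded the difference between genotypes.

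Complex IV, cytochrome c oxidase, reduces oxygen to water. Its 18 members summed to 318, 411 and 374 CPM in WT and 403, 394 and 445 CPM in Mkx-/- libraries, with overlapping groups. The 15 tested members had a median log2 fold change of 0.16, with 11 higher and 4 lower, and the 11 ubiquitous subunits a median of 0.12, with 8 higher and 3 lower. Cox4i1, the largest nuclear subunit, had 116, 152 and 125 CPM in WT and 132, 135 and 148 CPM in Mkx-/-, and its log2 fold change was 0.08 (SE 0.14, adjusted p = 0.788, edgeR). Cox6a1 was second by length-scaled level, with 130 ± 17.3 CPM per kb in WT and 155 ± 15.9 in Mkx-/-.

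Cox6b2 and Cox6a2, the 2 members that rose, are both tissue-restricted isoforms of complex IV. Both entered the test through the Mkx-/- libraries alone, since 0 WT libraries and all 3 Mkx-/- libraries reached the level that the filter on low counts asks for, and both were dropped by a filter of 10 counts in every library. Cox6b2 (mm9, chr7:4703396-4704696, minus strand) had 5, 4 and 6 counts in the WT and 25, 25 and 27 counts in the Mkx-/- libraries, that is 0.394, 0.393 and 0.481 CPM against 2.29, 1.76 and 2.14 CPM. The groups did not overlap. The libraries of each group were close together, but counts this low have a large counting error. Mean levels were 0.422 ± 0.051 CPM in WT and 2.06 ± 0.28 CPM in Mkx-/- (SD over 3 libraries), and Cox6b2 rose by 2.25 on the log2 scale (SE 0.34, 95% confidence interval 1.47 to 3.03, adjusted p = 0.0105, edgeR). The call was lost without WT replicate 2 (adjusted p = 0.0572) or WT replicate 3 (adjusted p = 0.0513). Cox6b subunits sit on the intermembrane side of the enzyme where cytochrome c docks.

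Cox6b1, the ubiquitous partner, had 21.6, 27.6 and 23.0 CPM in WT and 30.3, 30.8 and 35.9 CPM in Mkx-/- libraries. The groups did not overlap, but the log2 fold change of 0.43 (SE 0.14) did not pass the test (adjusted p = 0.115, edgeR). Of the length-scaled level of the pair, Cox6b2 made up 1.64, 1.29 and 1.88% in WT and 6.47, 4.97 and 5.18% in Mkx-/- libraries. Cox6b1 remained the main transcript in every library.

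The 120 bases before the start of 4 genes, from RefSeq in GRCm38.p6 on the gene's strand, are shown to set the promoter of Cox6b2 beside its ubiquitous partner and beside muscle-type isoforms. Cox6a2, the other member that rose, is named only. They lie at chr7:4753095-4753214 (-), chr7:30626115-30626234 (-), chr7:30184051-30184170 (+) and chr7:140900447-140900566 (-), and capitals mark matches to the 6 motifs searched, on either strand.
Cox6b2: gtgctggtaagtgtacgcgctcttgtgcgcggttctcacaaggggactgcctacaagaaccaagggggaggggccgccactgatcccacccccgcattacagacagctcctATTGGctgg
Cox6b1: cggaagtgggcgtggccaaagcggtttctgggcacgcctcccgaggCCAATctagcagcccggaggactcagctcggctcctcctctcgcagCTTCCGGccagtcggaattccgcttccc
Cox7a1: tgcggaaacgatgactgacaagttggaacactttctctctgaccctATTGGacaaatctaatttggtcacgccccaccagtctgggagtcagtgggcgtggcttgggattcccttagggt
Cox8b: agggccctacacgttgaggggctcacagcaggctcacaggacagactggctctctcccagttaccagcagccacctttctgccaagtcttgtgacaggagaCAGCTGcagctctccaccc

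Within these windows the Cox6b2 promoter held a CCAAT box 9 bases before the start, read on the opposite strand. The Cox6b1 promoter held a CCAAT box 74 bases before the start and, on the opposite strand, an ETS motif 28 bases before it. The Cox7a1 promoter held a CCAAT box on the opposite strand 74 bases before the start and the Cox8b promoter the E-box CAGCTG 19 bases before it. A match describes the letters only and is not a measured binding site.

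Cox6a2 (mm9, chr7:135348950-135349880, minus strand) had the largest difference of all members and the widest spread. It had 6, 1 and 7 counts in WT and 77, 57 and 22 counts in Mkx-/- libraries, that is 0.473, 0.0981 and 0.561 CPM against 7.05, 4.005 and 1.74 CPM. The groups did not overlap, and the Mkx-/- libraries differed widely among themselves. Mean levels were 0.377 ± 0.246 CPM in WT and 4.27 ± 2.66 CPM in Mkx-/- (SD over 3 libraries), and Cox6a2 rose by 3.40 on the log2 scale (SE 0.65, 95% confidence interval 1.92 to 4.88, adjusted p = 0.0241, edgeR). This call was lost in 4 of 6 fits that left out 1 library, without WT replicate 2 (adjusted p = 0.0894), WT replicate 3 (0.0799), Mkx-/- replicate 1 (0.0507) or Mkx-/- replicate 2 (0.0613). The gene is overlapped on the opposite strand by Itgad, and whether counting used strand is not given in the sources used here.

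Its ubiquitous partner Cox6a1 had 64.5, 84.3 and 73.8 CPM in WT and 87.7, 79.9 and 98.0 CPM in Mkx-/- libraries, with overlapping groups (log2 fold change 0.25, SE 0.14, adjusted p = 0.332, edgeR). Of the length-scaled level of the pair, Cox6a2 made up 0.632, 0.101 and 0.655% in WT and 6.53, 4.17 and 1.52% in Mkx-/-. The shares did not overlap and differed by 3.61 percentage points, with an exact two-sided permutation p of 0.1, the smallest that 3 against 3 allows (0.3 after Benjamini-Hochberg adjustment over the 3 muscle-type pairs).

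The other muscle-type isoforms did not pass a test. Cox7a1 had 4, 0 and 5 counts in WT and 18, 6 and 17 counts in Mkx-/- libraries, too few for the filter on low counts. All Mkx-/- libraries were above all WT libraries, by a narrow gap. Of the length-scaled level of Cox7a1 and Cox7a2, its share was 4.10, 0 and 2.69% in WT and 11.8, 3.10 and 8.09% in Mkx-/- (difference 5.39 percentage points, exact permutation p = 0.2, adjusted p = 0.3). Where a count was 0, in WT replicate 2, the level could still have been up to 0.294 CPM (3 counts, for counting error only). In a fit of all genes with at least 1 count in any library, its log2 fold change was 2.13 (SE 0.72, adjusted p = 0.0898, edgeR).

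Cox8b had the highest length-scaled level of the muscle-type isoforms in WT (5.82 ± 1.57 CPM per kb, beside 0.573 ± 0.373 for Cox6a2 and 0.655 ± 0.580 for Cox7a1), with 21, 28 and 24 counts against 41, 28 and 20 counts in Mkx-/- libraries. Replicate 1 of Mkx-/- was high and the other two lay within or below the WT range, with a log2 fold change of 0.20 (SE 0.39, adjusted p = 0.805, edgeR). Its share of Cox8a and Cox8b was 6.65, 8.30 and 6.52% in WT and 11.99, 6.39 and 4.39% in Mkx-/- (difference 0.43 percentage points, exact permutation p = 1). The ubiquitous partners had log2 fold changes of 0.25 for Cox7a2 (SE 0.23, adjusted p = 0.586) and 0.16 for Cox8a (SE 0.15, adjusted p = 0.556).

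Cox4i2, the isoform known from lung, was on the other side of 0. It had 19, 25 and 22 counts in WT and 8, 22 and 16 counts in Mkx-/- libraries, with 1.497, 2.45 and 1.76 CPM against 0.733, 1.55 and 1.27 CPM. The groups overlapped slightly, and the log2 fold change of -0.65 (SE 0.37, 95% confidence interval -1.496 to 0.19) did not pass the test (adjusted p = 0.342, edgeR). The testis isoforms Cox7b2 and Cox8c had 0 counts in every library, which allows up to 0.210 to 0.294 CPM.

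**Figure D4:**
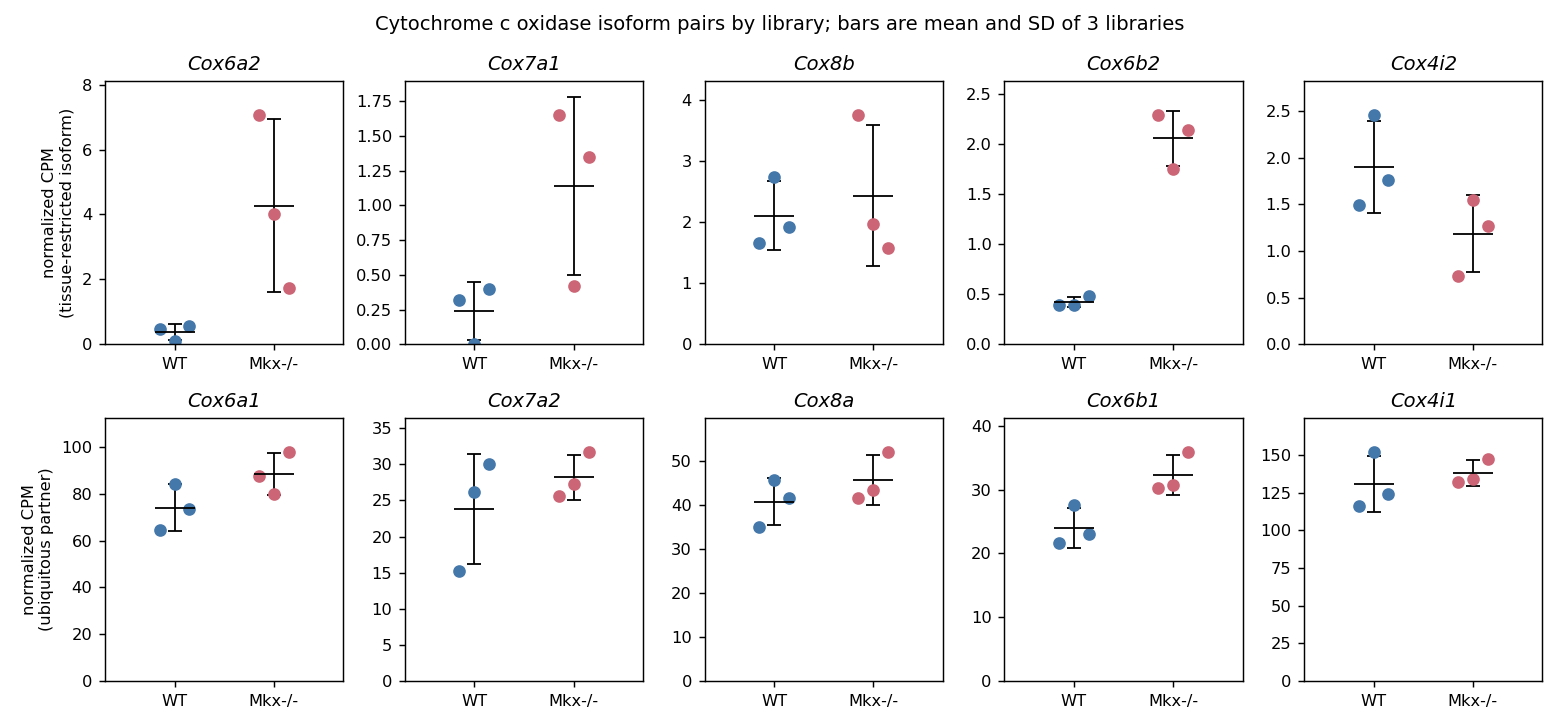
Normalized CPM (vertical axes, from 0, own scale in each panel) of 5 tissue-restricted complex IV isoforms (upper row) and their ubiquitous partners (lower row) in each library (points), with mean and SD of 3 libraries. Cox6a2, Cox7a1 and Cox6b2 are higher in every Mkx-/- library than in any WT library, and the partners are at much higher levels throughout.

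Cox6a2 was set beside other genes of skeletal muscle. A list of 33 contractile and sarcomere genes summed to 569, 174 and 397 CPM in WT and 3829, 1870 and 903 CPM in Mkx-/- libraries. Of 31 tested genes, 30 were higher in Mkx-/- and 8 rose, with a median log2 fold change of 2.79, and Myh2 was at -0.15. The count that rose depended on single libraries. It was 21 without WT replicate 1, 1 without WT replicate 2, WT replicate 3 or Mkx-/- replicate 2, 2 without Mkx-/- replicate 1 and 10 without Mkx-/- replicate 3. Those that rose included Tpm2 (log2 fold change 1.66, adjusted p = 0.00577), Casq1 (2.72, adjusted p = 0.0287) and Tnnt3 (3.02, adjusted p = 0.035), in edgeR's fit, for a tropomyosin that smooth muscle also expresses, the calcium store protein of fast fibres and fast troponin T.

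The order of the Mkx-/- libraries by Cox6a2 was that of the summed muscle list, but not of all its genes. Of the 33 genes, 25 were highest in Mkx-/- replicate 1 and 1 in replicate 2, while 7, among them the slow-fibre genes Myh7, Tnni1, Tnnt1 and Tnnc1, were highest in replicate 3, where Cox6a2 was lowest. In WT the sum was highest in replicate 1 and Cox6a2 in replicate 3. Per 1000 CPM of the list, Cox6a2 had 0.831, 0.564 and 1.41 CPM in WT and 1.84, 2.14 and 1.93 CPM in Mkx-/- libraries. Cox6b2 did not follow this order. Per 1000 CPM of the list, Cox6b2 had 0.693, 2.26 and 1.21 CPM in WT and 0.598, 0.939 and 2.37 CPM in Mkx-/- libraries, with overlapping groups. Cox7a1 was lowest in Mkx-/- replicate 2. The part of muscle transcripts in the level of Cox6a2, Cox7a1 and Cox6b2 was not tested. The 73 ubiquitous subunits summed to 2380, 2903 and 2676 CPM in WT and 2716, 2613 and 2851 CPM in Mkx-/- libraries, without the order of the muscle list.

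**Figure D5:**
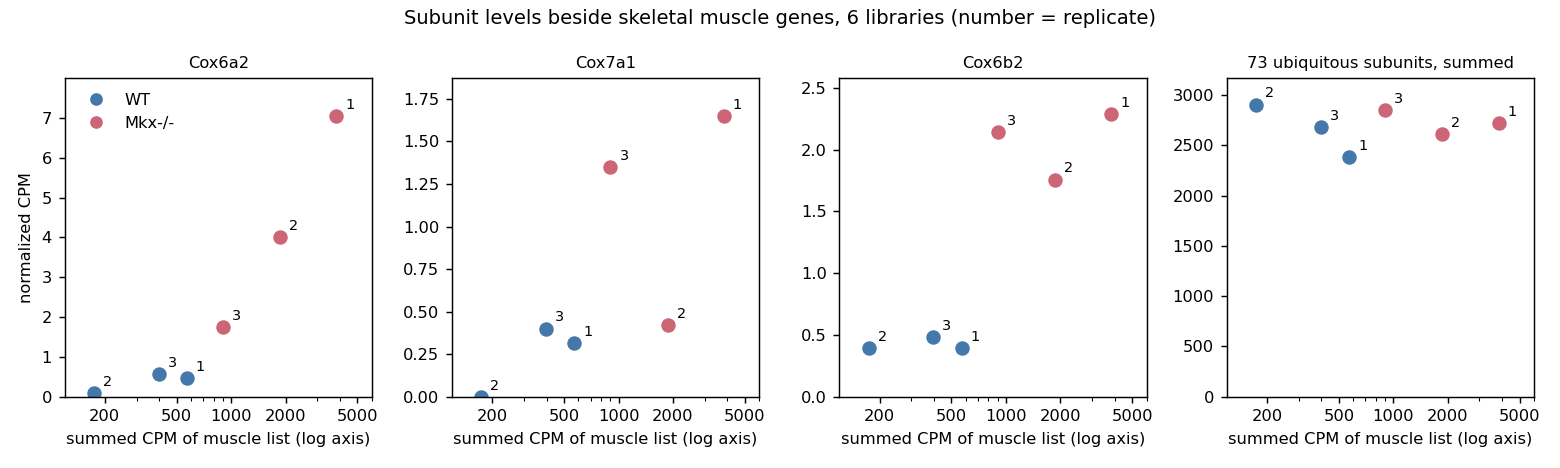
Normalized CPM (vertical axes, from 0) of Cox6a2, Cox7a1, Cox6b2 and the 73 ubiquitous subunits summed, against the summed CPM of 33 skeletal muscle genes (log axis), in 6 libraries numbered by replicate. Cox6a2 in Mkx-/- runs from 1.74 to 7.05 CPM in the order of the summed muscle list, and Cox6b2 in Mkx-/- stays between 1.76 and 2.29 CPM.

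Other cell types were checked in the same way. Of 12 endothelial genes, all tested, 10 were higher and 1 rose, and of 10 tested Schwann cell genes 9 were higher and 0 passed. Of 10 tested macrophage and leukocyte genes 10 were lower and 2 fell (median log2 fold change -0.55, sums 488 and 328 CPM). Of 6 tested erythroid genes 6 were lower and 0 passed. The erythroid sum was 455 CPM in WT replicate 1, the library of lowest subunit levels, against 85.5 and 104 CPM in the other WT libraries and 52.1 to 94.3 CPM in Mkx-/-. Of 2 tested adipocyte genes 1 rose, and of 12 tendon genes 1 rose and 0 fell. None of these lists was tested as a source of subunit transcripts.

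The rest of the pathway was likewise without calls. Of the 13 mitochondrial DNA-encoded subunits, which include the catalytic center of complex IV, 12 were tested, 0 passed, and the median log2 fold change was -0.05. Those with the smallest p were ND3 (-0.30, SE 0.18, adjusted p = 0.355, edgeR), ND2 (0.17, SE 0.15, adjusted p = 0.559) and COX2 (0.17, SE 0.16, adjusted p = 0.565), of complexes I, I and IV. ND2 had 334, 377 and 428 CPM in WT and 425, 374 and 486 CPM in Mkx-/- libraries, and the groups overlapped.

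Among 12 tested genes of cytochrome c, electron carriers and metabolite channels, with Cyc1 of complex III among them, 0 passed (median log2 fold change -0.03). Etfa, which feeds electrons from fatty acid oxidation into the chain, was at 27.2 ± 7.06 CPM in WT and 19.1 ± 2.73 in Mkx-/- (log2 fold change -0.51, adjusted p = 0.175, edgeR). Next by p were Atpif1, the inhibitor of the ATP synthase (0.25, adjusted p = 0.360), and the outer membrane channel Vdac3 (-0.28, adjusted p = 0.373). Of 38 tested assembly factors 0 passed (median -0.03), with the smallest p for Coa5 (-0.39, adjusted p = 0.107) and Cox18 (0.68, adjusted p = 0.212), which act in building complex IV, and Uqcc2 (0.48, adjusted p = 0.265), which acts in building complex III. Higher and lower genes were mixed in both lists, with 5 and 7 in the former and 17 and 21 in the latter.

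Of 16 tested genes of the tricarboxylic acid cycle 0 passed (median log2 fold change 0.09). Suclg2, a subunit of succinyl-CoA ligase, had 12.5, 11.8 and 10.8 CPM in WT and 8.79, 8.15 and 6.34 CPM in Mkx-/- libraries (log2 fold change -0.59, SE 0.17, adjusted p = 0.0836, edgeR). The groups did not overlap, though the test was not passed. Next by p were Idh3a, of isocitrate dehydrogenase (0.34, adjusted p = 0.204), and Pdha1, of pyruvate dehydrogenase (-0.25, adjusted p = 0.277). Cs, the gene of citrate synthase, was at 78.6 ± 9.59 CPM in WT and 82.7 ± 7.93 in Mkx-/- (log2 fold change 0.07, adjusted p = 0.801). These are transcript levels, and mitochondrial content was not measured. Of 15 tested genes of fatty acid oxidation 14 were lower in Mkx-/- and 0 passed (median -0.18), with the smallest p for Eci1 (-0.32, adjusted p = 0.200), Hadh (-0.22, adjusted p = 0.389) and Eci2 (-0.19, adjusted p = 0.429).

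Among 15 regulators of mitochondrial biogenesis 0 passed (median log2 fold change -0.03). Ppargc1a, the coactivator of nuclear genes for mitochondrial proteins, had 2.52, 4.91 and 2.80 CPM in WT and 1.47, 1.76 and 1.11 CPM in Mkx-/- libraries. All Mkx-/- libraries were below all WT libraries, and the log2 fold change of -1.22 (SE 0.35) had an adjusted p of 0.0834 (edgeR). Gabpa, a subunit of the ETS factor GABP, was at 30.9 ± 4.05 CPM in WT and 25.7 ± 1.95 in Mkx-/- (adjusted p = 0.302), and Yy1 at 22.2 ± 4.45 and 17.9 ± 2.55 (adjusted p = 0.338).

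Of the members that are not subunits, Cox7a2l, a supercomplex assembly factor, had 64.3, 79.0 and 78.7 CPM in WT and 58.1, 70.5 and 65.4 CPM in Mkx-/- libraries (log2 fold change -0.19, adjusted p = 0.444, edgeR), with overlapping groups. Atp5s (0.16, adjusted p = 0.755) and Atp5sl (0.18, adjusted p = 0.526) did not pass either. Of the 4 pseudogenes, Atp5c1-ps was tested (-0.68, adjusted p = 0.336), and Atp5l-ps1, Atp5l-ps2 and Atp5l2-ps had too few counts. Their reads may belong to the parent genes.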

How the data were processed

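Raw counts of 6 tail tendon libraries were analysed. The authors deposited whole-number counts per gene symbol, not normalized, from Ion Proton reads of total RNA cleaned of adaptors and aligned to mm9 with MapSplice. The counting program, its annotation and its handling of strand and multimapping reads are not given in the sources used here. All 6 columns were matched to samples by label, and 0 columns were left unused.

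Counts were scaled and fitted in edgeR 4.0.16 (R 4.3.3, TMM, filterByExpr, quasi-likelihood fit on genotype, prior count 0.125, Benjamini-Hochberg adjustment over 14550 genes). On simulated counts of these 14550 genes, with 200 changed by 2 on the log2 scale, the fit recovered 182 and called 13 others. Standard errors are the fold change over the root of F. Lengths came from GENCODE vM1 (mm9), and 25 of 83 members with an annotation record overlapped another gene. Shares of isoforms were compared by an exact permutation test. DESeq2 1.42.0, other scalings and filters, a replicate block and leaving out each library were alternatives.

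The members and gene lists were chosen with earlier results of these data known. Genes were named if they passed the adjusted p, were tissue-restricted isoforms or their partners, had the highest 2 length-scaled levels or the extreme log2 fold changes of a complex, could not be tested, or had up to the 3rd smallest p of a pathway or muscle list, with Ppargc1a and Cs added. Coordinates are 1-based. With 10835070 to 14160301 counts per library, members with about 10 counts have a large counting error.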

Additional observations from a re-analysis of the deposited data

How the results depend on the processing

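The absence of members that fell held under all alternatives, and the 2 members that rose did so under all but the following. Scaling by library size only, which moved the median of all genes to 0.25, gave 4 that rose, with Uqcr10 (0.71) and Cox6b1 (0.69) added, and medians of 0.32 over members, 0.32 for complex I, 0.32 for complex II, 0.27 for complex III, 0.43 for complex IV and 0.27 for complex V. It also put above 0 Ndufa6 (0.23), Ndufb5 (0.0411), Uqcrh (0.0818), Atp5e (0.116) and Atp5g3 (0.0318). A filter of 10 counts in every library left out both members and gave 0 that rose and 0 upregulated.

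Leaving out 1 library gave 0 to 2 members that rose, and 0 to 2 upregulated. The median ran from 0.0111 to 0.149 over members, -0.00787 to 0.164 for complex I, 0.0337 to 0.113 for complex II, -0.0276 to 0.0836 for complex III, 0.0581 to 0.27 for complex IV and -0.125 to 0.00271 for complex V, and the Cox8b share difference from -1.77 to 2.03 percentage points. Named members whose small difference crossed 0 ran from -0.25 to 0.43 (Cox8b), -0.0028 to 0.18 (Cox4i1), -0.0759 to 0.204 (Ndufb10), -0.0968 to 0.0107 (Ndufa6), -0.0672 to 0.121 (Sdha), -0.0638 to 0.0586 (Uqcrc1), -0.28 to 0.0027 (Atp5e) and -0.14 to 0.56 (Atp5g1). The WT median of length-scaled levels, 29.0 CPM per kb, was 19.1 by the longest transcript and 14.9 by the union of exons. The cause of these changes was not tested.

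Same-numbered samples had correlations of 0.03, -0.21 and 0.30, and samples of unlike number -0.39 to 0.40. With 3 libraries per group these values cannot settle whether the numbers pair the samples. In the fit with a replicate block, edgeR called the same 2 members, Cox6a2 (adjusted p = 0.0481) and Cox6b2 (0.0393). Both entered that fit through the same filter, reached by Mkx-/- libraries alone, so that it is no independent check.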

Other observations

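Ndufa4l2, a paralog of Ndufa4 known as a target of hypoxia-inducible factor, falls outside the rule for members and was looked at after its values were seen. It had 140, 179 and 171 CPM in WT and 91.8, 68.8 and 79.4 CPM in Mkx-/- libraries, and it fell by 1.03 on the log2 scale (SE 0.15, adjusted p = 0.0102, edgeR). Without WT replicate 2 its adjusted p was 0.0509, and without WT replicate 3 it was 0.0477. Ndufab1, the acyl carrier protein of complex I, also falls outside the rule, and it had 2.60, 2.65 and 1.68 CPM in WT and 3.66, 1.12 and 3.49 CPM in Mkx-/- libraries (log2 fold change 0.24, adjusted p = 0.795). No explanation was tested for either.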
